A study of Mus musculus with 19 samples.

Results

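The kynurenine pathway is the main route by which cells break down tryptophan, and the 6 genes described here encode the enzymes that carry tryptophan along it towards NAD. They were matched by symbol to the Ensembl identifiers of the count data, and all 6 of 41388 listed genes were found. The set was selected on a measured value, chosen by the count of *Tdo2*, which was higher in *WizMommeD30/+* than in *Wiz+/+* cerebellum. The genotype difference of *Tdo2* in cerebellum is for that reason given as a description, and its place among the genes called in that comparison supports nothing.

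In the pathway, tryptophan 2,3-dioxygenase (*Tdo2*) opens the indole ring of tryptophan, and the kynurenine formamidase encoded by *Afmid* releases kynurenine. Kynurenine monooxygenase (*Kmo*), kynureninase (*Kynu*) and 3-hydroxyanthranilate dioxygenase (*Haao*) lead on to quinolinic acid, which quinolinate phosphoribosyltransferase (*Qprt*) commits to NAD synthesis. *Tdo2* is best known as a liver enzyme. In brain, the pathway is known for kynurenic acid and quinolinic acid, which act on glutamate receptors.

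RNA-seq counts of polyadenylated RNA came from 16 samples of FVB mice. Whole brains were taken from male embryos at 13.5 days post coitum (E13.5; 3 *Wiz+/+* and 3 *WizMommeD30/+*) and from female embryos of the same age (2 and 2). Cerebellum was taken from adult males 56 days post partum (3 and 3). *WizMommeD30* is an allele from an ENU mutagenesis screen, so every cell of a heterozygote carries it. The screen used the Line3 strain, which is FVB/NJ with a multicopy GFP transgene under a human alpha-globin promoter, and the allele was kept by crossing heterozygotes to Line3, so wildtype and heterozygous mice share that background. The embryos came from crosses between heterozygotes.

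Between 16386029 and 50459755 reads per sample were counted on genes, with the fewest in the second male *Wiz+/+* brain. Levels are CPM, the share of a library's counts on a gene, scaled by TMM over all 16 samples. Before that scaling, 3 reads correspond to 0.0595 to 0.183 CPM. *Wiz* had 105 ± 0.433 CPM in *Wiz+/+* and 73.9 ± 0.794 in *WizMommeD30/+* cerebellum (SD, n = 3 each), and every heterozygous sample lay below every wildtype sample in each of the 3 tissue and sex sets. The adult samples carried the markers of cerebellum: 6 granule neuron genes summed to 6140 to 6416 CPM there and 376 to 425 CPM in E13.5 brain. Markers of neural progenitors summed to 388 to 414 CPM in cerebellum and 1188 to 1467 CPM in E13.5 brain. The male E13.5 brains stood apart from the others in 5 liver marker genes (*Alb*, *Apoa1*, *Fgb*, *Cyp2e1* and *Serpina1a*), which summed to 4.35 to 45.9 CPM in them, 0.557 to 0.692 CPM in female brains and 0.325 to 1.04 CPM in cerebellum. In the second *WizMommeD30/+* cerebellum, 5 choroid plexus markers summed to 1042 CPM, against 1902 to 2226 CPM in the other 5.

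*Tdo2* (ENSMUSG00000028011) lies on the minus strand of chromosome 3, chr3:81957090-81976202 in GRCm38, and no other annotated gene overlaps it. In *Wiz+/+* cerebellum, *Tdo2* was at 10.8, 11.3 and 12.6 CPM, from 299, 304 and 352 reads. In *WizMommeD30/+* cerebellum it was at 17.8, 18.2 and 18.4 CPM, from 463, 488 and 514 reads. The 3 heterozygous samples lay close together, and all of them were above the highest wildtype sample. The means were 11.5 ± 0.918 and 18.1 ± 0.281 CPM (SD, n = 3 each), a ratio of 1.57 and a fitted log2 fold change of 0.65 with a standard error of 0.07. This is the difference that chose the gene.

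In E13.5 brain *Tdo2* was scarce. Male *Wiz+/+* brains had 0.941, 1.33 and 0.771 CPM, from 50, 23 and 28 reads. Male *WizMommeD30/+* brains had 0.304, 0.254 and 0.747 CPM, from 13, 11 and 27 reads. All 3 heterozygous male brains were below all 3 wildtype ones, though the third heterozygous brain was only just below the lowest wildtype brain. With 3 brains per genotype a lack of overlap carries little weight alone, and the share of all genes without it was not counted. In female brains the values were 0.0598 and 0.278 CPM in *Wiz+/+*, from 3 and 13 reads, and 0.144 and 0.143 CPM in *WizMommeD30/+*, from 7 reads in each brain. The female heterozygotes lay between the wildtype brains.

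**Figure D1:**
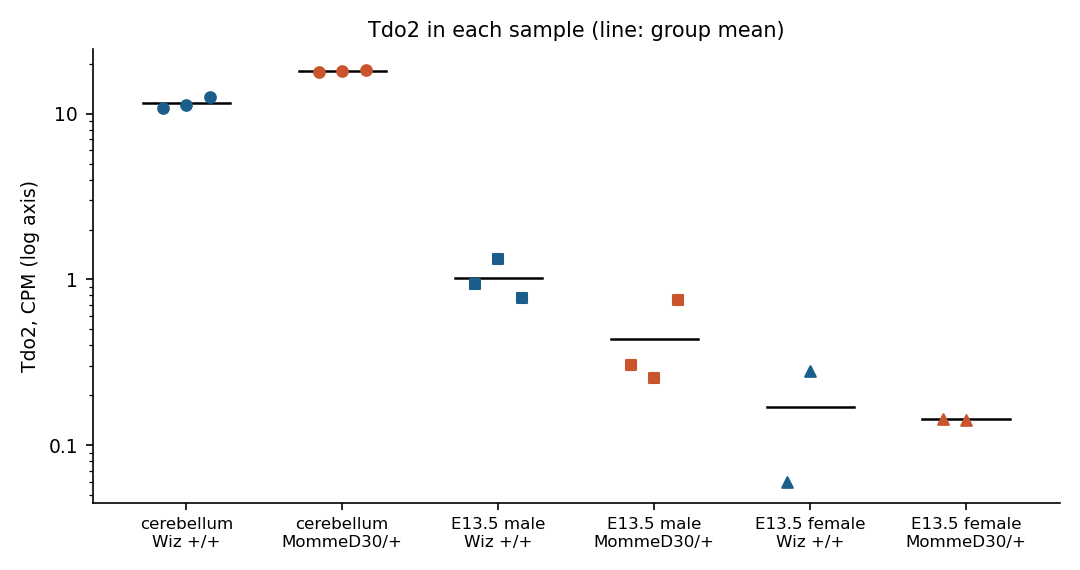
*Tdo2* in CPM on a log axis, 1 point per sample, for the 6 groups of tissue, sex and genotype, with a line at each group mean. The cerebellum samples sit between 10.8 and 18.4 CPM, the male E13.5 brains between 0.254 and 1.33 CPM and the female E13.5 brains between 0.0598 and 0.278 CPM.

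Ordered by mean level, the groups ran from *WizMommeD30/+* cerebellum (18.1 CPM) and *Wiz+/+* cerebellum (11.5 CPM) through male *Wiz+/+* brain (1.01 CPM) and male *WizMommeD30/+* brain (0.435 CPM) to female *Wiz+/+* brain (0.169 CPM) and female *WizMommeD30/+* brain (0.143 CPM). Among the first 4 groups, no range touched that of its neighbour. The male *WizMommeD30/+* range overlapped that of female *Wiz+/+* brain, and the ranges of both female groups overlapped.

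The genotype difference in male E13.5 brain was tested by the quasi-likelihood method of edgeR over 16848 genes. A gene was called when its p, adjusted by Benjamini and Hochberg's method, did not exceed 0.05 and its fold change fell outside 0.7 to 1.3. For *Tdo2* the fitted log2 difference was -1.18 with a standard error of 0.35 (heterozygous minus wildtype, n = 3 each), an unadjusted p of 0.0057 and an adjusted p of 0.34 in this edgeR fit, so it did not pass. The adjusted p ran from 0.0118 to 0.999 over the settings tried. Without the third *WizMommeD30/+* male brain the log2 fold change was -1.76 with an adjusted p of 0.0233, and with no filter on low counts it was -1.18 with an adjusted p of 0.0118, both past the threshold in edgeR. More genes of all kinds were called in these 2 settings, 117 of 17155 and 175 of 25431, against 31 of 16848 in the first fit.

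The liver markers moved with *Tdo2* among the male brains. *Alb*, the serum albumin made by liver, was at 22.3, 34.9 and 15.3 CPM in the 3 *Wiz+/+* male brains and at 4.94, 2.68 and 19.7 CPM in the 3 *WizMommeD30/+* male brains, in the same replicate order as the *Tdo2* values above. The brain with the most *Alb* had the most *Tdo2*, and the brain with the least *Alb* had the least. All 5 liver markers had reads in both male groups, and their sum was 20.97 to 45.9 CPM in wildtype and 4.35 to 26.4 CPM in heterozygous brains, so those ranges overlapped. Their part in the *Tdo2* difference was not tested. In female brains, where *Fgb* and *Serpina1a* had no reads and *Alb* was at 0.0204 to 0.0411 CPM, the 2 genotypes overlapped in *Tdo2*, but only 3 to 13 reads were counted per brain.

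**Figure D2:**
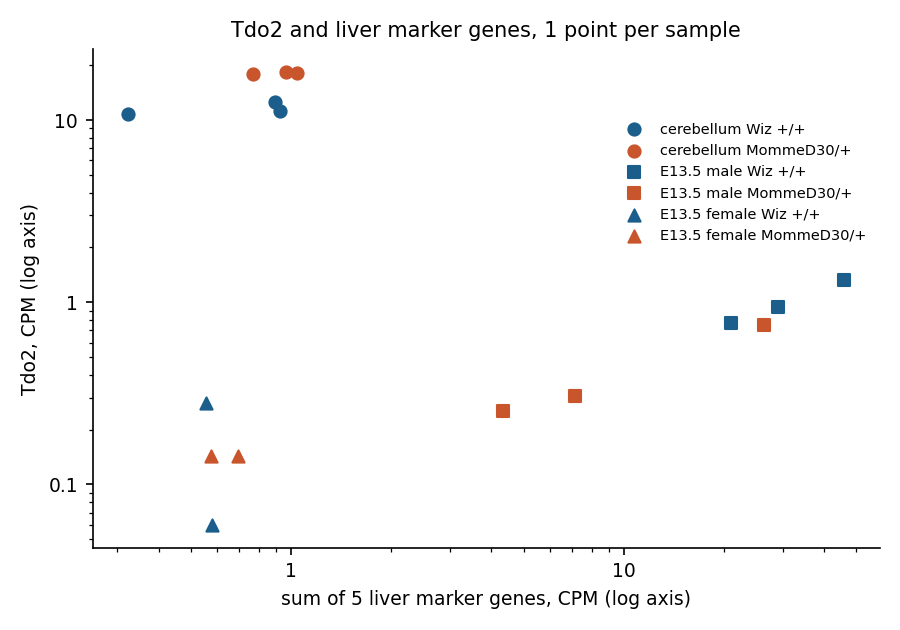
*Tdo2* against the summed level of 5 liver marker genes, both in CPM on log axes, 1 point per sample, with shape for tissue and sex and colour for genotype. Among the 6 male E13.5 brains both values were low or high together, while cerebellum had 10.8 to 18.4 CPM of *Tdo2* at liver marker sums of 0.325 to 1.04 CPM.

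When the 10 E13.5 brains were fitted together with a term for sex, *Tdo2* stood at -0.98 on the log2 scale (standard error 0.36; edgeR, adjusted p = 0.32). In cerebellum the 5 liver markers summed to 0.325 to 0.927 CPM in *Wiz+/+* and 0.770 to 1.04 CPM in *WizMommeD30/+* samples, with overlap. *Fgb* had no read there and *Alb* at most 2, while *Cyp2e1*, the most abundant of the 5, had 5 to 15 reads in wildtype and 15 to 17 in heterozygous samples. The sums of blood, Purkinje cell and endothelial markers did not overlap between genotypes in cerebellum. Those of granule neuron, astrocyte and Bergmann glia, oligodendrocyte, microglia, meningeal fibroblast, choroid plexus and neural progenitor markers did. The share of all genes without overlap there was not counted. The 5 blood markers summed to 160 to 249 CPM in *Wiz+/+* and 291 to 528 CPM in *WizMommeD30/+* samples, 5 Purkinje cell markers to 2671 to 2708 and 2722 to 2820 CPM, and 4 endothelial markers to 71.2 to 77.0 and 69.1 to 70.4 CPM. Of these, 4 blood markers were called higher, where 0.532% of all genes were, and no Purkinje cell or endothelial marker was called. Among Purkinje cell markers, the mean of *Pcp2* was lower in heterozygotes and those of *Calb1*, *Car8*, *Pcp4* and *Ppp1r17* were higher. Among endothelial markers, *Cldn5* and *Pecam1* were lower and *Tek* and *Cdh5* higher. The part of these cells in the *Tdo2* values was not tested. In a whole tissue, fewer cells of a type and less RNA per cell cannot be told apart. The second *WizMommeD30/+* cerebellum was low in choroid plexus markers and had the highest blood marker sum (528 CPM). Without it the log2 fold change of *Tdo2* was 0.65. This is the contrast that chose the gene, and the part of either cell type was not tested.

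*Ido1* and *Ido2* encode indoleamine dioxygenases that catalyse the same first step. *Ido1* had 0 to 4 reads in each of the 16 samples. *Ido2* was at 0.771 to 0.926 CPM in male *Wiz+/+* brains, 0.624 to 0.691 CPM in male *WizMommeD30/+* brains and 0.498 to 0.878 CPM in female brains of both genotypes. In cerebellum it had 0, 0 and 2 reads in *Wiz+/+* and 3, 2 and 2 reads in *WizMommeD30/+* samples, all at or under the 3 reads that a count of 0 allows. Per kilobase of exon, *Tdo2* made up at least 99.1% of the summed level of the 3 first-step genes in the cerebellum samples. The share of *Tdo2* was 27.6% to 57.4% in male brains and 9.43% to 22.9% in female brains, and that of *Ido2* was 42.6% to 72.4% and 65.0% to 83.9%. *Ido2* did not pass the test between genotypes in male brain (log2 fold change -0.37), in female brain (-0.33) or over both sexes (-0.35, adjusted p = 0.44 in edgeR).

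*Afmid* (ENSMUSG00000017718, chr11:117825924-117839908, plus strand), the formamidase, had the opposite tissue pattern to *Tdo2*. It was at 0.253, 0.482 and 0.536 CPM in *Wiz+/+* and 0.539, 0.223 and 0.393 CPM in *WizMommeD30/+* cerebellum. In male brains it was at 1.51, 1.45 and 2.18 CPM in *Wiz+/+* and 1.59, 1.59 and 1.27 CPM in *WizMommeD30/+*. Every E13.5 brain was above every cerebellum sample, and the genotypes overlapped in cerebellum and in male brain. In female brains both heterozygotes (1.56 and 1.81 CPM) were above both wildtypes (1.32 and 1.46 CPM), with a log2 fold change of 0.29, a standard error of 0.19 and an adjusted p of 0.86 in edgeR. With 2 female brains per genotype, a lack of overlap carries little weight for any gene. The share of all genes without overlap was not counted. The exons of *Afmid* share 1566 bases with *Gm20708*, on the same strand and at most 0.183 CPM in any sample, and 83 bases with the thymidine kinase gene *Tk1*, on the opposite strand and at 0.652 to 28.6 CPM. Reads in those bases cannot be assigned with certainty, since the counting mode and strand setting are not given in the sources used here.

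*Kmo* (ENSMUSG00000039783, chr1:175620381-175662116, plus strand), whose product hydroxylates kynurenine, was at 0.469, 0.445 and 0.536 CPM in *Wiz+/+* and 0.423, 0.857 and 0.715 CPM in *WizMommeD30/+* cerebellum. The heterozygous samples held the lowest and the 2 highest values of the 6, so the genotypes overlapped. In male brains the values were 0.207, 0.521 and 0.138 CPM in *Wiz+/+* and 0.164, 0.0693 and 0.166 CPM in *WizMommeD30/+*, from 3 to 11 reads. The highest, from 9 reads, was the wildtype brain with the most *Alb*, which had the fewest reads counted on genes. Female brains had 2 to 8 reads of *Kmo*. The span of *Kmo* overlaps *Fh1* on the opposite strand, with no exon base in common.

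*Kynu* (ENSMUSG00000026866, chr2:43555329-43682715, plus strand), the kynureninase gene, had 0 to 5 reads per cerebellum sample, which the filter on low counts removed. The *WizMommeD30/+* cerebellum with 0 reads allows up to 3 reads, or 0.106 CPM before TMM scaling. In E13.5 brain *Kynu* had 4 to 20 reads. Female *Wiz+/+* brains were at 0.398 and 0.364 CPM and female *WizMommeD30/+* brains at 0.164 and 0.326 CPM, without overlap in 2 brains per genotype. The log2 fold change was -0.63, with a standard error of 0.41 and an adjusted p of 0.85 in edgeR. In male brains the means were in the other order, at 0.223 ± 0.0309 CPM in *Wiz+/+* and 0.320 ± 0.107 CPM in *WizMommeD30/+* (SD, n = 3 each), with overlap. *Kynu* did not reach the filter in the male comparison.

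*Haao* (ENSMUSG00000000673, chr17:83831156-83847963, minus strand), which makes the precursor of quinolinic acid, had at most 7 reads in any sample and reached the filter in none of the comparisons. Male *Wiz+/+* brains had 7, 7 and 5 reads (0.132, 0.405 and 0.138 CPM) and male *WizMommeD30/+* brains 3, 3 and 1 (0.0702, 0.0693 and 0.0277 CPM). The wildtype male brains were above the heterozygous ones, but at so few reads a lack of overlap carries little weight. The highest value, from 7 reads, was in the brain with the most *Alb* and the fewest reads counted on genes. Other members had their highest male value elsewhere: *Afmid* in the third *Wiz+/+* brain (2.18 CPM), *Kynu* (0.421 CPM) and *Qprt* (1.12 CPM) in the first *WizMommeD30/+* brain. With no filter on low counts *Haao* did not pass the threshold in male brain. Female brains had 2 and 0 reads in *Wiz+/+* and 4 and 0 reads in *WizMommeD30/+*, where 0 reads allow up to 0.0682 and 0.0645 CPM before TMM scaling. Cerebellum samples had 2 to 5 reads.

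*Qprt* (ENSMUSG00000030674, chr7:127107114-127122226, minus strand), which uses up quinolinic acid, was measured in every comparison. Male brains had 0.489, 0.695 and 0.386 CPM in *Wiz+/+* and 1.12, 0.624 and 0.802 CPM in *WizMommeD30/+*. Female brains had 0.618 and 0.386 CPM in *Wiz+/+* and 0.781 and 0.754 CPM in *WizMommeD30/+*. The heterozygous means were higher in both sexes, with overlap in males (the second heterozygous brain was below the second wildtype brain) and none in females. The log2 fold change was 0.79 (standard error 0.29) in males, 0.60 (standard error 0.30) in females and 0.70 (standard error 0.21, unadjusted p = 0.0051) over both sexes. None passed in edgeR, with adjusted p of 0.49, 0.80 and 0.21. In cerebellum *Qprt* was at 1.01, 0.964 and 1.29 CPM in *Wiz+/+* and 0.924, 1.23 and 1.43 CPM in *WizMommeD30/+*, with overlap.

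**Figure D3:**
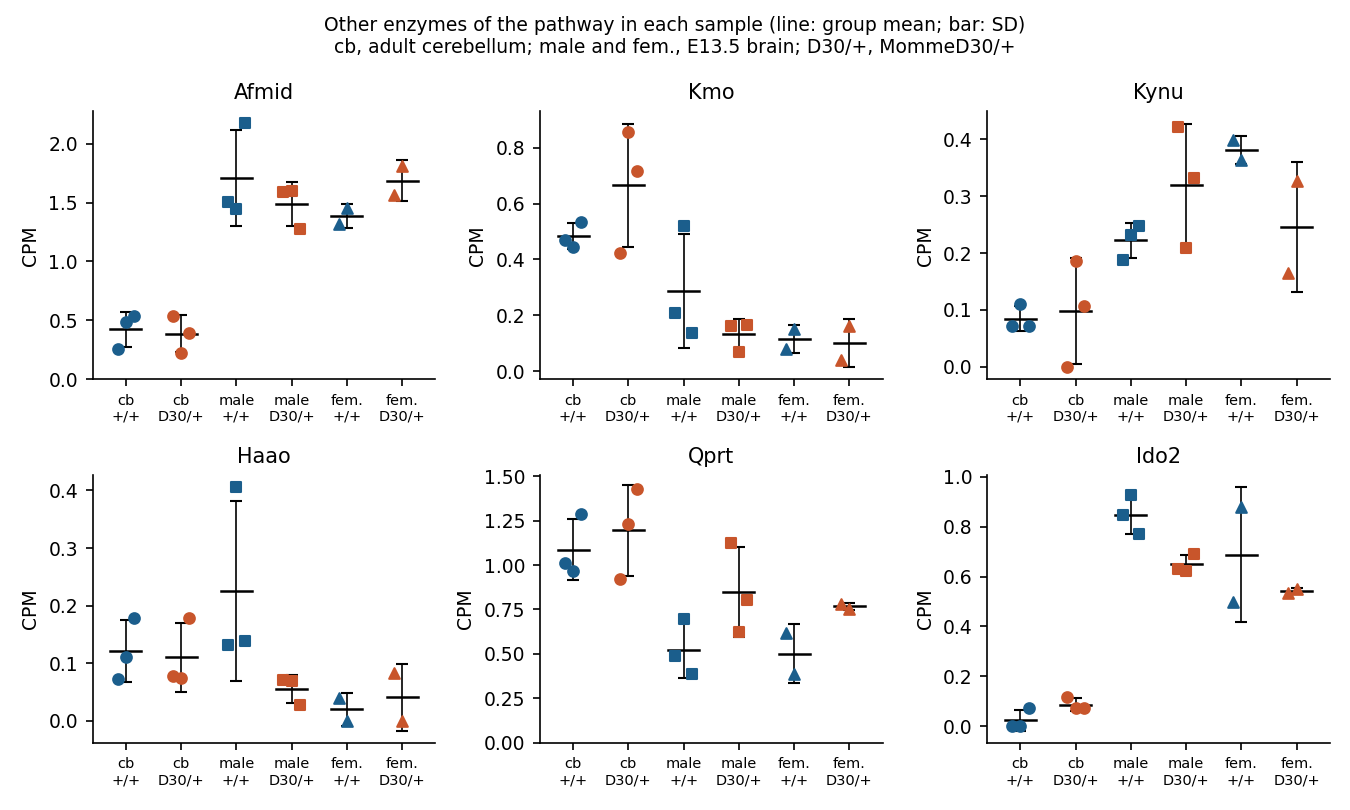
CPM of *Afmid*, *Kmo*, *Kynu*, *Haao*, *Qprt* and *Ido2* in each sample, 1 panel per gene, with the group mean as a line and the SD as a bar (n = 3, and n = 2 for female brains). *Afmid*, *Kynu* and *Ido2* have their lowest group means in cerebellum, and *Qprt* and *Kmo* have their highest there.

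Between genotypes, then, none of the members that reached the filter passed the threshold in E13.5 brain: 0 of 3 in males, 0 of 3 in females and 0 of 4 over both sexes, by edgeR and by DESeq2 alike. Over all genes tested, 0.184%, 0.111% and 0.346% were called in those comparisons. At an unadjusted p under 0.05 there were 2 members in males (*Tdo2* and *Qprt*), 0 in females and 2 over both sexes (*Tdo2* and *Qprt*), where 8.45%, 6.4% and 11.8% of all genes tested had such a p. In cerebellum 1 of the 4 members that reached the filter, *Tdo2*, was called in a comparison that called 0.832% of all genes (0.532% as higher in heterozygotes), from which nothing can be read since it was chosen for that difference. The other 3 had log2 fold changes of 0.46 (*Kmo*, standard error 0.31), 0.14 (*Qprt*, standard error 0.22) and -0.14 (*Afmid*, standard error 0.38).

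The adult cerebellum was then compared with the male E13.5 brain within each genotype. Tissue and age differ together in this comparison and cannot be told apart, nor can any batch of libraries, which the labels do not give. In *Wiz+/+* males all 4 members that reached the filter were called, 3 higher and 1 lower in cerebellum, in a comparison where 69.3% of all genes tested were called. In *WizMommeD30/+* males 3 of 4 were called, 2 higher and 1 lower, beside 68.8% of all genes. *Kmo* did not reach the filter in the male brain comparison and entered here through cerebellum, where it was higher, so its difference followed in part from the filter and the counts of members are a description.

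*Tdo2* was higher in cerebellum by 3.59 on the log2 scale (standard error 0.14; edgeR, adjusted p = 2.1e-12) in *Wiz+/+* males, whose cerebellum and brain ranges did not overlap. In *WizMommeD30/+* males the log2 difference was 5.43 (standard error 0.18; edgeR, adjusted p = 1.1e-12). Both values rest in part on the cerebellum samples by which the gene was chosen, so they and their p are a description. Against the female E13.5 brains of the same genotype, the log2 fold changes of *Tdo2* were 6.09 in *Wiz+/+* and 6.95 in *WizMommeD30/+*. That comparison was added after the liver markers were seen, and sex differs in it too. *Tdo2* did not reach the filter in the genotype comparison of female brains and entered these fits through cerebellum, where it was higher. Its fold changes against female brains therefore followed in part from the filter and are a description. The astrocyte and Bergmann glia markers, among other cell type markers, also differed between these tissues: 5 of them summed to 2342 to 2427 CPM in cerebellum and 180 to 219 CPM in E13.5 brain. The part of cell composition in the *Tdo2* difference was not tested.

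*Afmid* was lower in cerebellum in both genotypes, with log2 fold changes of -2.02 (standard error 0.28, adjusted p = 6.5e-06 in edgeR) and -1.94 (standard error 0.26, adjusted p = 8.4e-06 in edgeR). *Kmo* reached the filter through cerebellum alone, so its fold changes and calls are a description and no p is given. It was higher in cerebellum in *WizMommeD30/+* males (log2 fold change 2.32, standard error 0.39), with no overlap between the samples. In *Wiz+/+* males *Kmo* was called at 1.02 (standard error 0.39), but the male brain richest in *Alb* reached into the cerebellum range. That *Kmo* call was lost with DESeq2 and with scaling by total counts. It was also lost without the third *Wiz+/+* cerebellum, the first *Wiz+/+* male brain or the third. Against female *Wiz+/+* brains *Kmo* had 2.05. *Qprt* was higher in *Wiz+/+* cerebellum (log2 fold change 1.14, standard error 0.25, adjusted p = 5.9e-04 in edgeR). In *WizMommeD30/+* males it had 0.50 (standard error 0.25, adjusted p = 0.072 in edgeR) and did not pass. It passed there without the first *WizMommeD30/+* cerebellum (0.66, adjusted p = 0.0367), without the first *WizMommeD30/+* male brain (0.76, adjusted p = 0.013) or against female brains (0.64, adjusted p = 0.0271). Whether the tissue differences of *Kmo*, *Qprt* or *Tdo2* differ between genotypes was not tested.

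**Figure D4:**
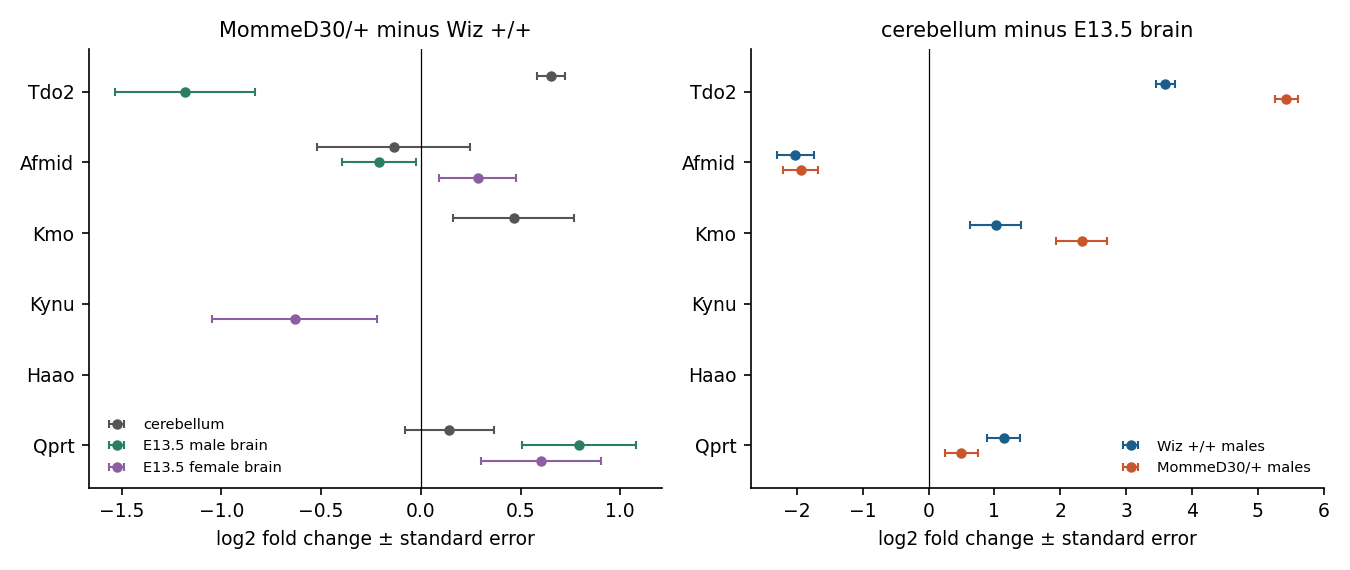
Log2 fold changes with standard errors of the members that reached the filter, for heterozygous minus wildtype in cerebellum and in male and female E13.5 brain (left) and for cerebellum minus male E13.5 brain in each genotype (right). In the right panel *Tdo2* lies farthest from 0, at 3.59 and 5.43, and *Afmid* is the member below 0, at -2.02 and -1.94.

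Levels of different genes were compared per kilobase of exon. In cerebellum *Tdo2* made up 80.2% to 82.7% of the summed length-scaled level of the 6 members in *Wiz+/+* samples and 84.7% to 88.3% in *WizMommeD30/+* samples. Its share was 7.32% to 27.5% in male and 2.17% to 9.96% in female E13.5 brain. The mean length-scaled levels in *Wiz+/+* cerebellum were 2.97 CPM per kilobase for *Tdo2*, 0.411 for *Qprt*, 0.120 for *Afmid*, 0.102 for *Kmo*, 0.0258 for *Haao* and 0.0138 for *Kynu*. In male *Wiz+/+* brain *Afmid* was first at 0.483 CPM per kilobase, before *Tdo2* at 0.261 and *Qprt* at 0.198, and *Kmo*, *Haao* and *Kynu* were at 0.0611, 0.0480 and 0.0362. Female *Wiz+/+* brain was led by *Afmid* at 0.392 and *Qprt* at 0.190 CPM per kilobase.

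**Figure D5:**
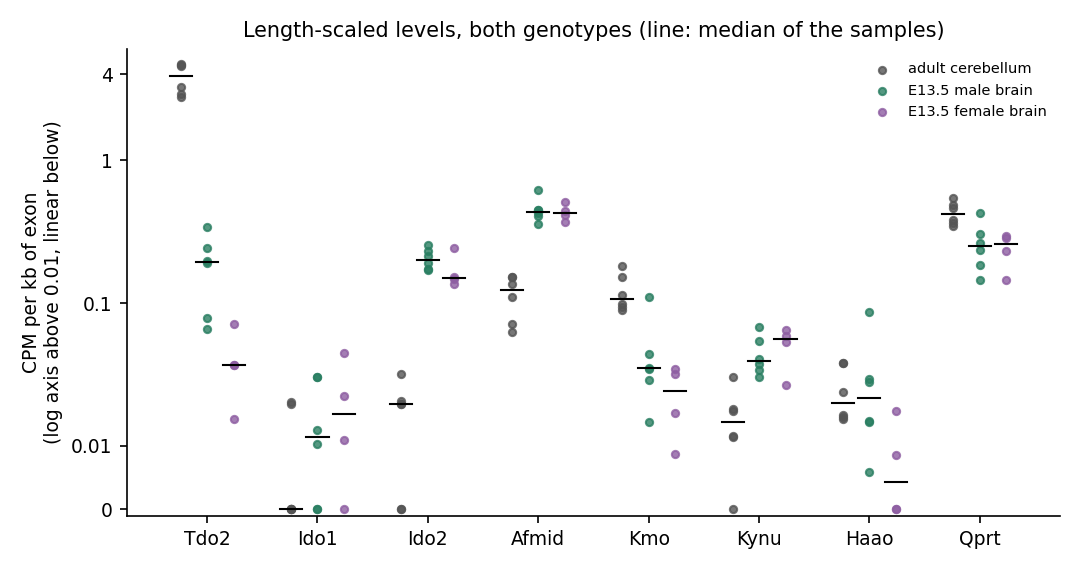
CPM per kilobase of exon for the 3 first-step genes and the other 5 members in every sample of both genotypes, with a line at the median of each tissue and sex set (n = 6, 6 and 4); the axis is logarithmic above 0.01 and linear below. *Tdo2* in cerebellum lies above every other point, and *Ido2* and *Afmid* are higher in E13.5 brain than in cerebellum.

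Genes around the pathway were described from 6 lists with 37 genes in all. In the genotype comparisons none of the 29 tested in male brain, 30 in female brain, 33 over both sexes or 26 in cerebellum was called by edgeR or by DESeq2, and 0, 0, 4 and 4 had an unadjusted p under 0.05, beside 8.45%, 6.4%, 11.8% and 19.9% of all genes tested. Their median log2 fold changes were 0.0221, -0.0562, -0.0066 and 0.0003, beside all-gene medians between -0.0031 and 0.0002. *Nmnat2*, a neuronal enzyme of NAD synthesis, was at 361 ± 6.27 CPM in *Wiz+/+* and 323 ± 22.7 CPM in *WizMommeD30/+* cerebellum (SD, n = 3 each), with an adjusted p of 0.0217 in edgeR, but its log2 fold change of -0.16 was within the fold limits. *Inmt*, which methylates tryptamine, reached the filter in E13.5 brain only over both sexes, through male *Wiz+/+* brains, where it was higher. No genotype fold change or p is given for that reason, and *Inmt* was not called there. It was at 0.263, 0.405 and 0.220 CPM in *Wiz+/+* and 0.0234, 0.0462 and 0.194 CPM in *WizMommeD30/+* male brains, with at most 1 read per female brain, and its 4 highest values in E13.5 brain were in the 4 male brains with the most *Alb*.

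Between cerebellum and male E13.5 brain, 16 of 30 tested genes of these lists were higher and 8 lower in *Wiz+/+* males, and 15 and 7 of 29 in *WizMommeD30/+* males, where 36.4% and 35.8% of all genes were called higher and 33% in heterozygotes and 32.9% in wildtypes lower. Of the genes of the side branches, which include the aminotransferases that turn kynurenine into kynurenic acid, 4 of 5 tested were higher and 1 lower in both genotypes. In *Wiz+/+* males *Kyat1* had a log2 fold change of 1.34, *Gcdh* 1.03, *Kyat3* 0.89 and *Got2* 0.66, whereas *Aadat*, another kynurenine aminotransferase, was lower. *Got2* was the most abundant of these, at 208 ± 1.90 CPM in *Wiz+/+* cerebellum and 132 ± 6.92 CPM in male *Wiz+/+* brain (SD, n = 3 each). The other first-step gene that could be tested, *Ido2*, was called lower in cerebellum in both genotypes, but it reached the filter through E13.5 brain alone and its cerebellum reads were at or under 3 per sample, so no fold change or p is given. *Aadat* too reached the filter through E13.5 brain alone, with 4 to 7 reads in *Wiz+/+* cerebellum, so its fold change is not given. The counts of genes called in these lists include such genes and are a description.

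Of the NAD synthesis genes, 5 of 7 tested were higher and none lower in each genotype. *Naprt*, which starts NAD synthesis from nicotinic acid, had 2.05, *Nmnat2* 1.53, *Nmrk1* 0.84, *Nampt* 0.45 and *Nadsyn1* 0.45 in *Wiz+/+* males. In *WizMommeD30/+* males *Nmnat1* was called (0.41) and *Nadsyn1* was not (0.29). In the serotonin and tryptamine branch, 4 of 7 tested were higher and 3 lower in *Wiz+/+* males. The monoamine oxidase genes *Maob* (3.54) and *Maoa* (0.69), *Aanat* and *Inmt* were higher in cerebellum, while *Tph2*, the neuronal tryptophan hydroxylase (-2.02), and *Ddc*, the aromatic amino acid decarboxylase (-1.34), were lower. *Slc6a4*, the serotonin transporter, was also called lower, with 1 to 4 reads in *Wiz+/+* cerebellum and 84 to 219 in male *Wiz+/+* brain. *Slc6a4* reached the filter through E13.5 brain alone, and *Aanat* and *Inmt* through cerebellum alone, when the tissues were fitted apart in males. No tissue fold change is given for these genes. In *WizMommeD30/+* males 3 were higher and 3 lower of 6 tested, and *Aanat* was not tested.

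Among 4 transporter genes, 2 were higher in cerebellum in each genotype and none lower. *Slc7a8* had 1.56 and *Slc3a2*, the heavy chain shared by several amino acid transporters, 0.49 in *Wiz+/+* males. *Slc7a5*, the light chain of the main tryptophan and kynurenine carrier, had -0.50 and stayed within the fold limits. Among the kynurenine receptors and receptor targets, *Ahr*, the aryl hydrocarbon receptor that binds kynurenine, was not called (-0.07, standard error 0.08, adjusted p = 0.41 in edgeR), at 9.92 ± 0.150 CPM in *Wiz+/+* cerebellum and 10.3 ± 0.855 CPM in male *Wiz+/+* brain (SD, n = 3 each). Its partner *Arnt* was higher (0.75), and its target *Cyp1b1* (-1.89) and *Gpr35* (-0.65), a separate receptor that binds kynurenic acid, were lower in *Wiz+/+* males. *Ahrr*, a repressor of the aryl hydrocarbon receptor, was also called lower, but reached the filter through E13.5 brain alone, with 4 to 5 reads in *Wiz+/+* cerebellum and 45 to 130 in male *Wiz+/+* brain. *Gpr35* was not called in *WizMommeD30/+* males (-0.58, adjusted p = 0.081 in edgeR).

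With scaling by total counts alone, the all-gene median of the tissue comparison was -0.226 in *Wiz+/+* and -0.238 in *WizMommeD30/+* males. The genes called were then 5101 higher and 6690 lower in *Wiz+/+* males, in place of 6124 and 5544, and 5068 and 6799 in *WizMommeD30/+* males, in place of 6081 and 5600. *Tdo2* had 3.39 and 5.21 with that scaling.

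The 5 genes whose log2 CPM followed *Tdo2* most closely over the 16 samples, among 17956 genes ranked by Pearson's r, were *C4b* (0.991), *Sstr3* (0.990), *Med13l* (0.984), *Reln* (0.984) and *Aqp9* (0.983). These coefficients mostly carry the difference between tissues, which the samples share. *C4b*, a complement gene, was at 9.26 CPM in *Wiz+/+* and 8.89 CPM in *WizMommeD30/+* cerebellum on average, and at 0.487 and 0.191 CPM in male brain. After the mean of each tissue and sex set was subtracted, the leading genes were *Nat8f2* (0.902), *Cplx2* (0.897), *Sstr3* (0.885), *Gc* (0.866) and *Foxred2* (0.858). This second measure still holds the genotype difference in cerebellum by which *Tdo2* was chosen, and both measures use the same 16 samples, so the rankings are a description. *Sstr3*, a somatostatin receptor gene, was named by both measures, with group means of 14.3 and 16.7 CPM in *Wiz+/+* and *WizMommeD30/+* cerebellum and 2.26 and 1.26 CPM in male brain. *Gc*, the vitamin D binding protein made by liver, had no read in cerebellum and means of 2.27 CPM in *Wiz+/+* and 0.893 CPM in *WizMommeD30/+* male brain.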

How the data were processed

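Polyadenylated RNA was sequenced as single-end reads. The authors deposited, for each sample, raw counts of reads on Ensembl genes, not normalized, made with TopHat2 2.0.11 and HTSeq 0.6.1 per the submitters' processing notes, on the mm10 build. The htseq-count mode, its strand setting and the Ensembl release are not given in the sources used here. Replicates are biological replicates in the study's methods. Symbols, exon lengths and positions came from GENCODE M21 (GRCm38), where 40340 of 41388 identifiers were found. The 3 ChIP-seq samples were not analysed here.

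The samples of a comparison were fitted alone in edgeR 4.0.16 (R 4.3.3), after TMM scaling and filterByExpr (minimum count 10), by the quasi-likelihood test, and p-values were adjusted by Benjamini and Hochberg's method over all genes tested. The threshold was an adjusted p not above 0.05 with a fold change outside 0.7 to 1.3. The study itself used DESeq, which was not run here. Standard errors are the size of the log2 difference over the square root of F. The fits were tested on simulated counts. Alternatives were DESeq2 1.42.0 (its size factors and its Wald test), total counts scaling, no filter, adjusted p alone, replicate block and leaving out each replicate. The fits against female brains were chosen after seeing the data. Other steps used Python 3.11.15, numpy 2.4.6, pandas 2.3.3 and matplotlib 3.10.9.

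The members and lists were chosen with earlier results of these data known. Named genes were the 6 members and *Wiz*, genes of the other pathway lists past the threshold in a fit (otherwise up to 4 per list with the highest mean CPM), the 5 genes most like *Tdo2* by each measure of log2 CPM (prior count 2), and genes whose exons overlap a member's. *Inmt* and *Nmnat2* in the genotype comparisons, *Slc7a5* and the liver markers were described after their values were seen. Replicates were not duplicates: the chi-square per gene between replicates of a group was 2.05 to 10.5. Floors of 3 reads cover counting error only.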

Additional observations from a re-analysis of the deposited data

Results flagged for a closer look

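The genotype difference of *Tdo2* went in opposite directions in 2 tissues. In cerebellum every *WizMommeD30/+* sample was above every *Wiz+/+* sample, with a ratio of mean CPM of 1.57, and in male E13.5 brain every *WizMommeD30/+* sample was below every *Wiz+/+* sample, with a ratio of 0.429. The male brain difference did not pass (adjusted p = 0.34 in edgeR), and in female E13.5 brain the genotypes overlapped, with a ratio of 0.847. The difference between the tissues was not tested. Nor was the share of all genes counted that had no overlap in 3 samples per genotype, so the lack of overlap carries little weight alone. The cerebellum ratio is the one by which the gene was chosen, and in the male brains the third heterozygote (0.747 CPM) lay next to the lowest wildtype (0.771 CPM) and the liver marker genes moved with *Tdo2*.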

How the results depend on the processing

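The number of members called was 0 in male E13.5 brain and became 1 (*Tdo2*) with no low-count filter. Leaving out 1 sample at a time, it ran from 0 to 1 in male brain, was 0 in female brain and over all E13.5 brains, and ran from 3 to 4 in both tissue comparisons. The other settings, the fits against female brains included, kept the number of members called within 1.5 times. Some log2 fold changes that were not called changed sign, those of *Afmid*, *Kynu* and *Qprt*. Without 1 sample, *Afmid* ran from -0.35 to 0.0061 in male brain and from -0.44 to 0.14 in cerebellum, and *Qprt* from -0.0044 to 0.29 in cerebellum. Over all E13.5 brains *Afmid* was -0.0014 with DESeq2 and ran from -0.0808 to 0.15 without 1 sample. *Kynu* there was 0.018 with DESeq2, 0.0059 with the replicate block, and -0.22 to 0.23 without 1 sample.

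Same-numbered samples did not deviate together (residual correlations of -0.13 to 0.0203). With deviations from the means of 2 or 3 samples, this cannot show whether samples were paired. With the replicate block, the members called were 0 in male, female and all E13.5 brains, and 4 and 3 in the tissue comparisons. In cerebellum *Tdo2*, chosen for its difference there, had 0.65 with the block. Over all genes the block gave 3 calls in female brain in place of 19, and 23 in male brain in place of 31.

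Counts of all genes called that moved by over 1.5 times were 175 (no filter) and 20 to 117 (without 1 sample) in male brain in place of 31; 32 (DESeq2) and 0 to 261 (without 1 sample) in female brain in place of 19; 101 (no filter) over all E13.5 brains in place of 61; and 839 (adjusted p alone), 75 (DESeq2), 211 (no filter) and 70 to 153 (without 1 sample) in cerebellum in place of 133. Why they moved was not tested.

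Depth limits *Haao* (0 to 7 reads per sample), *Ido1* (0 to 4), *Kynu* in cerebellum (0 to 5), *Kmo* in E13.5 brain (2 to 11) and *Tdo2* in female brain (3 to 13), so that small differences between genotypes were not detectable there. With total counts scaling, the mean of *Tdo2* was 10.5 CPM in *Wiz+/+* and 16.5 CPM in *WizMommeD30/+* cerebellum.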
